A study of Mus musculus with 4 samples.

Results

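A set of 8 MAP kinase feedback genes was followed in sorted bone marrow progenitors with and without Nup358: the phosphatase genes Dusp1, Dusp2, Dusp5 and Dusp6, the inhibitor genes Spry1, Spry2 and Spred1, and the transcription factor gene Etv5. They were taken by gene symbol, and all 8 were among the 27998 genes counted. Growth factor and cytokine receptors activate RAS, which starts the RAF, MEK and ERK kinase cascade, and active ERK turns on genes that dampen the same cascade. Dual-specificity phosphatases (Dusp) remove the phosphates that make MAP kinases active, Sprouty and Spred proteins act upstream on the step from receptor and RAS to RAF, and Etv5, an ETS factor of the PEA3 group, is a transcriptional output of the pathway. In blood progenitors the pathway transmits signals from receptors such as Kit and Flt3.

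RNA was counted in single LSK cells, the fraction without lineage markers and with the receptors Sca1 and cKit on the surface that holds stem cells and multipotent progenitors, with a droplet assay that reads the 3′ ends of transcripts. Control mice were Nup358 fl/fl (called wild-type in the labels) and Nup358 KO mice were Nup358 fl/fl that also carried R26-CreERT2, a tamoxifen-inducible Cre expressed in all tissues that deletes exon 2, and tamoxifen is described for both genotypes, though not by name for the control mice of these libraries. Each genotype had 2 libraries, each pooled from 3 bone marrows of mice 9 to 12 weeks old, so that a value per library is already a mean over animals. A unique molecular identifier (UMI) marks 1 captured molecule, and levels are given as CPM, the UMIs of a gene scaled to 1000000 UMIs of the cells summed, a scale that needs no correction for gene length because only transcript ends are read. With 2 libraries per genotype, p-values cover the spread between these libraries only. The test also draws the spread of each gene toward that of the other genes. A small p-value therefore does not rest on the measured spread of that gene alone.

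The libraries were not independent in their barcodes. Of the 25242 deposited barcodes, 10936 (43.3%) carried 3 or more times the UMIs under the same sequence in a different library, between 14.8% and 81.8% per library, and these were left out of the values below. This kept 14041 cells, from 1200 in control 2 to 7830 in control 1, with 18846887 to 59033602 UMIs per library and a median of 6251 UMIs per cell in control 1 against 13175.5 to 17707 in the other libraries. Of the kept cells only 7357 had a barcode sequence found in no other library. Sharing crossed genotypes: of the barcodes left out of control 2, 1232 had the most UMIs in Nup358 KO 1, 2598 in Nup358 KO 2 and 1765 in control 1. Ranbp2, the gene of Nup358, had 127 and 101 CPM in the control libraries against 124 and 126 in the Nup358 KO libraries (log2 fold change 0.09, SE 0.15), and reads at the 3′ end of a transcript do not test the deletion of exon 2.

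Cells were assigned to gates by the summed level of marker genes, and a gate was tested only with at least 20 cells in each library. The stem gate held 3964 cells and the neutrophil gate 2899, and the megakaryocyte (408), erythroid (268) and lymphoid-primed (259) gates were small. Another 5287 cells passed no gate. Monocyte or dendritic, basophil or mast, B-lineage and plasmacytoid dendritic gates had too few cells in at least 1 library. Within each library all 9 stem, 8 neutrophil and 6 lymphoid-primed markers were higher in their gate than in the other cells, and 6 of 7 were for the megakaryocyte and for the erythroid gate. The sort receptor gene Kit was between 95.9 and 142 CPM in the stem gate and between 49.2 and 77.3 in the neutrophil gate. It lay between 64.5 and 112 in the megakaryocyte, 83.1 and 140 in the erythroid and 26.6 and 77.6 in the lymphoid-primed gate. In the B-lineage gate Kit had 29.2 and 20.5 CPM in the Nup358 KO libraries, against 0 and 22.1 in the control libraries, from 0 and 1 UMIs. Of the gated cells, 3361 lay less than 25% above the threshold of their gate. Among them were 2007 of the 3964 cells of the stem gate and 747 of the 2899 of the neutrophil gate. Of the kept cells 1485 (10.6%) passed 2 or more gates and were placed in the gate with the highest score over its threshold. The neutrophil gate held 30.7% and 15.4% of the cells in the control libraries against 10.6% and 4.24% in the Nup358 KO libraries. The B-lineage gate held 0.141% and 0.667% in the control libraries against 7.24% and 9.09%, and the plasmacytoid dendritic gate held 2 and 0 cells against 30 and 63. Values over all LSK cells therefore also carry a change in cell makeup.

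Over all LSK cells, Etv5 rose in the Nup358 KO and the other members did not pass the test. The question was which parts of the feedback circuit differ between genotypes in the whole sorted population. Etv5 (ENSMUSG00000013089, chr16:22381313-22439570 of GRCm38) had 3.56 and 4.09 CPM in the control libraries against 14.7 and 17.0 in the Nup358 KO libraries. Both Nup358 KO libraries were above both control libraries by more than the difference between replicates. The log2 fold change was 2.03 (SE 0.19, adjusted p 0.00674 by the quasi-likelihood test of edgeR, adjusted over all genes tested by Benjamini-Hochberg, the test behind every adjusted p below). Of the 13779 genes tested, 3.44% passed the threshold of 0.05, and 1.37% rose and 2.07% fell. The single member called of 8 stands beside that background.

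The phosphatase genes of the immediate early kind were lower in both Nup358 KO libraries, without passing the test. Dusp1 (ENSMUSG00000024190, chr17:26505591-26508472), whose product acts in the nucleus on p38, JNK and ERK, had 195 and 198 CPM in the control libraries against 88.0 and 129.6 in the Nup358 KO libraries. Its log2 fold change was -0.89 (SE 0.21, adjusted p 0.0657). Dusp2 (ENSMUSG00000027368, chr2:127336159-127338377), a nuclear phosphatase best known from activated immune cells, had 144 and 249 in the control libraries against 73.8 and 97.3 in the Nup358 KO libraries (log2 fold change -1.25, SE 0.29, adjusted p 0.0657). The 2 control libraries differed from each other more than the 2 Nup358 KO libraries did, and the groups did not overlap. Dusp5 (ENSMUSG00000034765, chr19:53529145-53541809), which binds ERK in the nucleus, had 49.9 and 80.6 against 26.8 and 36.5 (log2 fold change -1.08, SE 0.27, adjusted p 0.0778). Spry1 (ENSMUSG00000037211, chr3:37639947-37644599), a Sprouty inhibitor of receptor signaling, had 7.45 and 16.2 in the control libraries against 4.18 and 6.07 in the Nup358 KO libraries (log2 fold change -1.22, SE 0.39, adjusted p 0.134). For Dusp2, Dusp5 and Spry1 the control libraries differed from each other more than the lower of them did from the Nup358 KO libraries.

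The remaining members stood apart from these. Spred1 (ENSMUSG00000027351, chr2:117121071-117182279), which brings neurofibromin to RAS at the membrane, had 27.5 and 28.2 CPM in the control libraries against 42.2 and 40.5 in the Nup358 KO libraries. Its log2 fold change of 0.53 (SE 0.14) had an adjusted p of 0.0818. Dusp6 (ENSMUSG00000019960, chr10:99263231-99267489), the cytoplasmic ERK phosphatase, had 18.5 and 24.2 against 26.3 and 25.4 (log2 fold change 0.24, SE 0.18, adjusted p 0.496). Spry2 (ENSMUSG00000022114, chr14:105891947-105896819), the other Sprouty gene measured here as a member, had 5.51 and 11.9 against 6.26 and 6.02 (log2 fold change -0.52, SE 0.36, adjusted p 0.447), and its groups overlapped. Counting groups that did not overlap, 4 members (Dusp1, Dusp2, Dusp5, Spry1) were lower in both Nup358 KO libraries, where 24.5% of all genes tested were, and 3 (Dusp6, Spred1, Etv5) were higher, where 29.9% were.

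The calls over all LSK cells changed with the test and with the libraries. With DESeq2 5 members passed, Dusp1, Dusp2, Dusp5, Spry1 and Etv5, where 6.87% of all genes did. Without control 1, control 2 or Nup358 KO 2 in turn 7, 6 and 5 members passed, where 20.7%, 13.4% and 2.68% of all genes did. The log2 fold changes then moved too: without control 1 they were -1.61 for Dusp2, -1.41 for Dusp5 and -1.71 for Spry1, without control 2 they were -0.77, -0.67 and -0.54, and that of Dusp1 ran from -1.21 without Nup358 KO 2 to -0.63 without Nup358 KO 1, while Etv5 stayed past the threshold without any 1 library. With all deposited barcodes kept the log2 fold changes shrank to -0.75 for Dusp1, -1.01 for Dusp2, -0.87 for Dusp5 and 1.61 for Etv5 (adjusted p 0.0336), and with no barcode shared between libraries Etv5 had 1.69 and an adjusted p of 0.094.

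**Figure D1:**
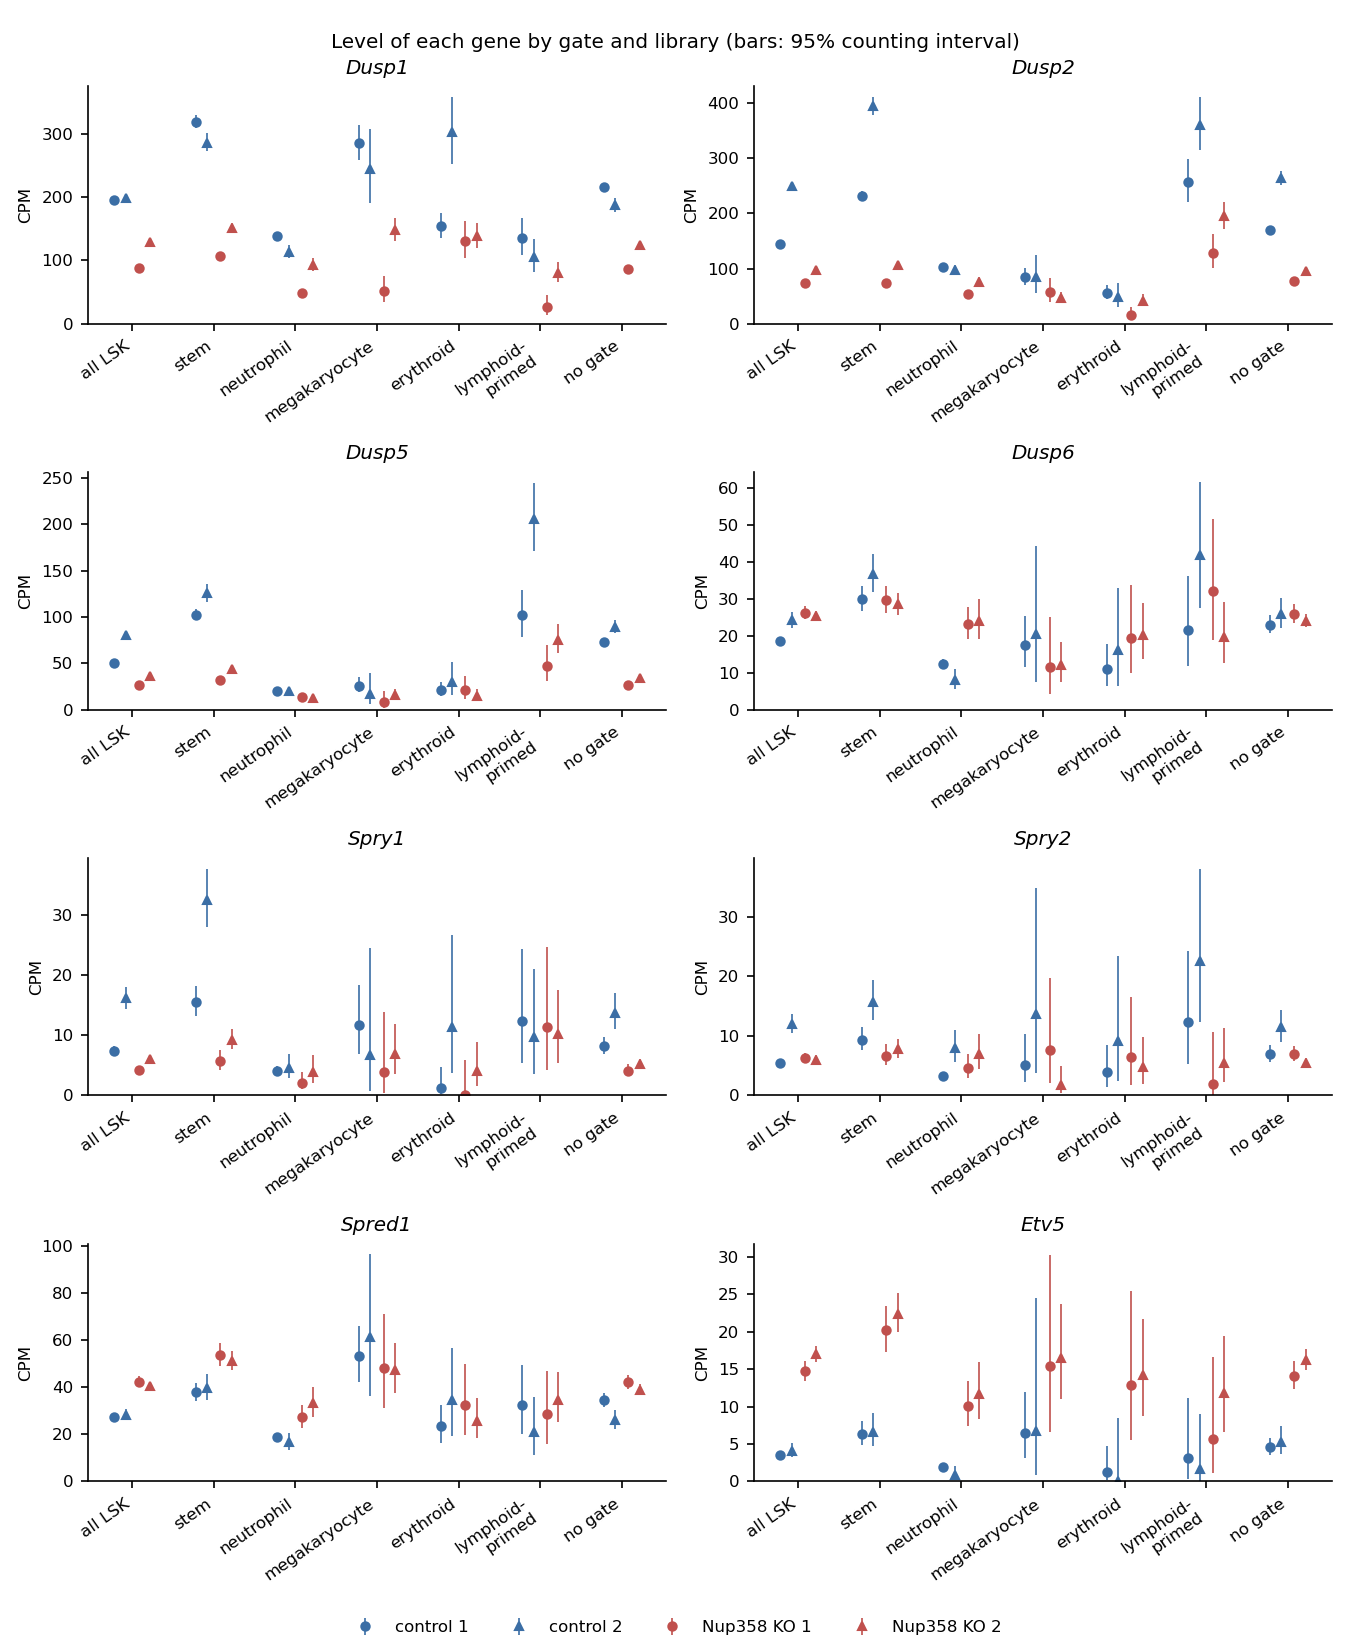
Levels of the 8 genes (CPM, linear axis from 0) in all LSK cells, in each tested gate and in cells of no gate, with 1 point per library and bars for the exact 95% Poisson interval, which covers counting error only. Etv5 in all LSK cells lies at 3.56 and 4.09 in the control libraries and at 14.7 and 17.0 in the Nup358 KO libraries, whereas Dusp1, Dusp2 and Dusp5 lie lower in both Nup358 KO libraries there and in the stem gate.

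The promoters of Dusp1, Dusp2 and Dusp5, the 3 phosphatase genes that fell in the stem gate described next, are shown. Spry1 fell there too, and its window, not shown, held none of the motifs below. The 3 genes shown are also the only members with a match. Each window runs from 250 bases before to 50 bases after the annotated start in RefSeq (GRCm38.p6), read 5′ to 3′ on the strand of the gene, and all 8 members had an entry. Capitals mark matches on either strand to 5 motifs of factors that act downstream of MAP kinases: the cAMP response element TGACGTCA, the AP-1 site TGANTCA, the EGR site GCGGGGGCG, the ETS site CCGGAAGT and the CArG box bound by SRF.
Dusp1, chr17:26508423-26508722, minus strand: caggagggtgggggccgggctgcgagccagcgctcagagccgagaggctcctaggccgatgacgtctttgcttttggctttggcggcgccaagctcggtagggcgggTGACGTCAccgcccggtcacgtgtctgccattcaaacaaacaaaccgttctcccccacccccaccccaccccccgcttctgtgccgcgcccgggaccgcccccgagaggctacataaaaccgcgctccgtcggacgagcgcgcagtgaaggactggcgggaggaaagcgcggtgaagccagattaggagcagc
Dusp2, chr2:127335909-127336208, plus strand: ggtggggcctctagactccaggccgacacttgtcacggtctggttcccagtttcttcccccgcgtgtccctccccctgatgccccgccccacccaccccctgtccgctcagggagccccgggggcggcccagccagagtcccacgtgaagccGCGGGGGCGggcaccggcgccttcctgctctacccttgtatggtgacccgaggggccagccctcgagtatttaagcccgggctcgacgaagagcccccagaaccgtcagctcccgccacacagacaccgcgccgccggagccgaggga
Dusp5, chr19:53528895-53529194, plus strand: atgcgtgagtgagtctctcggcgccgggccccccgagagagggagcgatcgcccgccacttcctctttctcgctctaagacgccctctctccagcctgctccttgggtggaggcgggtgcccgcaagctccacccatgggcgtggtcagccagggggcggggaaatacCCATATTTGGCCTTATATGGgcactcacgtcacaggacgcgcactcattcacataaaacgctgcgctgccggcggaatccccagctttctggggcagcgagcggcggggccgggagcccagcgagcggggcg
Dusp1 held 1 cAMP response element that starts 143 bases before the annotated start, Dusp2 held 1 EGR site that starts 98 bases before it, and Dusp5 held 2 CArG boxes side by side, which start 82 and 72 bases before it. No matches overlapped. None of the 5 motifs was found in the windows of Dusp6, Spry1, Spry2, Spred1 or Etv5, the last with 2 annotated starts. Among all 32851 promoter windows of the same length, 1.79% held the cAMP response element, 2.91% the EGR site, 1.63% a CArG box, 7.81% the AP-1 site and 3.89% the ETS site. The share of all windows with any of the 5 motifs is not given, so the count of members with a match is no result about them. A link between a match and the fall in the stem gate was not tested. A match describes letters in a window and does not show binding.

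In the stem gate 5 of the 8 members passed the test between genotypes, 4 of which fell. This comparison asked whether differences hold within cells that passed the same marker threshold, although the markers themselves differed there: the 9 stem markers summed to 2464 and 2929 CPM in the control libraries against 1532 and 1540 in the Nup358 KO libraries (2 fell and 1 rose), and the 8 neutrophil markers to 1117 and 540 against 417 and 245 (2 fell). Their part in the values below was not tested. Of all 11956 genes tested there, 7.23% passed, and 4.43% fell and 2.8% rose. Dusp2 had 231 and 394 CPM in the control libraries against 73.9 and 106 in the Nup358 KO libraries, and fell by 1.79 on the log2 scale (SE 0.29, adjusted p 0.0176). Dusp5 had 103 and 126 against 32.1 and 43.5 and fell by 1.58 (SE 0.20, adjusted p 0.00932). Dusp1 had 319 and 286 against 106 and 152 and fell by 1.21 (SE 0.19, adjusted p 0.0168). Every Nup358 KO library was below both control libraries for these 3 phosphatase genes. For Dusp2, however, the control libraries differed from each other more than the lower of them did from the Nup358 KO libraries. Spry1 had 15.6 and 32.6 against 5.66 and 9.28 and fell by 1.63 (SE 0.39, adjusted p 0.045). Its control libraries again differed from each other more than the lower of them did from the Nup358 KO libraries.

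Etv5 rose in the same cells. It had 6.32 and 6.62 CPM in the control stem gate and 20.2 and 22.4 in the Nup358 KO stem gate, from 37 to 290 UMIs per library (log2 fold change 1.74, SE 0.20, adjusted p 0.00649). Spred1 had 37.7 and 39.7 against 53.5 and 51.0, and its log2 fold change of 0.45 (SE 0.15) had an adjusted p of 0.101. Spry2 had 9.34 and 15.8 against 6.70 and 7.81 (log2 fold change -0.73, SE 0.29, adjusted p 0.146). Dusp6 had 30.1 and 36.9 against 29.7 and 28.5 (log2 fold change -0.18, SE 0.18, adjusted p 0.534). All 8 members therefore had groups that did not overlap in the stem gate, 6 lower and 2 higher in the Nup358 KO, where 30.0% and 27.7% of all genes tested were.

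These 5 calls were kept without any 1 library, and the log2 fold change of Spry1 was -0.97 without control 2. With all deposited barcodes the same 5 genes passed, with log2 fold changes of -1.14 for Dusp1, -1.62 for Dusp2, -1.45 for Dusp5, -1.47 for Spry1 and 1.54 for Etv5. With no barcode shared between libraries, which left 32 control 2 cells in the gate, only Dusp2 passed (log2 fold change -1.58, adjusted p 0.0276), beside values of -1.25 for Dusp1, -1.34 for Dusp5 and 1.88 for Etv5. After each cell was thinned to 1000 UMIs, Dusp1, Dusp2 and Dusp5 passed, at -1.53, -2.09 and -1.67, and Spry1, Spry2 and Etv5 had too few UMIs to be tested.

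In the neutrophil gate 2 members rose and none fell, where 0.927% of all 10459 genes tested rose and 2.29% fell. The gated cells were not alike between genotypes: the 8 neutrophil markers summed to 13709 and 14869 CPM in the control libraries against 4483 and 4674 in the Nup358 KO libraries (5 fell), and 7 monocyte or dendritic genes to 956 and 994 against 262 and 165 (5 fell). Their part in the members' values was not tested. Dusp6 had 12.2 and 7.99 CPM in the control libraries against 23.1 and 24.0 in the Nup358 KO libraries (log2 fold change 1.14, SE 0.23, adjusted p 0.0266). Both Nup358 KO libraries were above both control libraries, the lower of which rests on 39 UMIs. Etv5 had 1.87 and 0.82 against 10.1 and 11.7 (log2 fold change 2.76, SE 0.36, adjusted p 0.0034), from 51 and 4 UMIs against 48 and 39. Spred1 had 18.6 and 16.6 against 27.3 and 33.3, and its log2 fold change of 0.74 (SE 0.20) had an adjusted p of 0.0737.

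In these cells the immediate early phosphatase genes were lower in the Nup358 KO without passing the test. The share of all genes lower in both Nup358 KO libraries is not given for this gate. Dusp1 had 139 and 114 CPM against 47.9 and 93.0 (log2 fold change -0.89, SE 0.26, adjusted p 0.0957). Dusp2 had 102 and 96.6 against 53.8 and 75 (log2 fold change -0.67, SE 0.19, adjusted p 0.0844). Dusp5 had 20.0 and 19.7 against 13.5 and 12 (log2 fold change -0.66, SE 0.21, adjusted p 0.132). Spry1 lay between 2.10 and 4.51 in the 4 libraries and Spry2 between 3.23 and 7.99, with log2 fold changes of -0.56 (SE 0.40) and 0.16 (SE 0.49). The call of Dusp6 was lost without Nup358 KO 1 (adjusted p 0.0802) and without Nup358 KO 2 (adjusted p 0.0982), each at a log2 fold change above 1.1, and that of Etv5 was kept, with 3.57 without control 1. With all deposited barcodes Dusp6 had 1.00 and Etv5 2.51, both past the threshold.

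In cells of no gate 3 members passed the test, 2 of which fell. Dusp5 had 72.8 and 89.3 CPM in the control libraries against 26.4 and 33.7 in the Nup358 KO libraries, and fell by 1.42 on the log2 scale (SE 0.20, adjusted p 0.0198). Dusp2 had 169.8 and 264 against 77.4 and 95.4 and fell by 1.32 (SE 0.25, adjusted p 0.0429). Its control libraries differed from each other more than the lower of them did from the Nup358 KO libraries. Etv5 had 4.57 and 5.22 against 14.1 and 16.2 and rose by 1.68 (SE 0.20, adjusted p 0.012). Dusp1 stood at the threshold, with 216 and 188 against 86.0 and 125 (log2 fold change -0.92, SE 0.20, adjusted p 0.0502). Of all 12371 genes tested in these cells 2.65% fell and 1.19% rose. The call of Dusp2 was lost without Nup358 KO 1 (adjusted p 0.0677) or Nup358 KO 2 (adjusted p 0.116), and that of Etv5 without Nup358 KO 2 (adjusted p 0.0601). With all deposited barcodes 5 members passed, Dusp1 (-0.74), Dusp2 (-1.0), Dusp5 (-1.13), Spry1 (-0.83) and Etv5 (1.14), and with no barcode shared between libraries 0 did. The shares of all genes that passed under these barcode rules are not given, so these counts are no result about the members.

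In the 3 small gates no member passed edgeR's test, and DESeq2 called 0 members, with no adjusted p for Dusp5, Dusp6 and Etv5 in the megakaryocyte gate. Between 5 and 6 members had enough UMIs to be tested there, and at an unadjusted p under 0.05 there were 3 in each gate, where 8.81%, 8.73% and 14.3% of all genes were: Dusp1, Dusp2 and Etv5 in the megakaryocyte and erythroid gates, and Dusp1, Dusp2 and Dusp5 in the lymphoid-primed gate. By adjusted p 0.328% of all genes passed in the megakaryocyte gate, 1.03% in the erythroid gate and 0.63% in the lymphoid-primed gate. In the erythroid gate Etv5 had 2 and 0 UMIs in the control libraries against 8 and 21 in the Nup358 KO libraries (adjusted p 0.0526). The 5 mature erythroid genes all fell in that gate, from a sum of 2576 and 40005 CPM to 63.0 and 87.9, and their part in this value was not tested. In the megakaryocyte gate Dusp1 had 285 and 244 CPM in the control libraries against 51.9 and 147.5 in the Nup358 KO libraries (log2 fold change -1.29, SE 0.29, adjusted p 0.0656). Dusp2 was lower in both Nup358 KO libraries in all 3 gates, from 129 and 195 against 257 and 361 in the lymphoid-primed gate to 16.1 and 41.9 against 56.1 and 48.1 in the erythroid gate. The erythroid values rest on 10 and 62 UMIs against 86 and 21. The share of all genes lower in both Nup358 KO libraries is not given for these gates, so this is no result about Dusp2. Without control 1, control 2 or Nup358 KO 2 in turn Dusp1 passed in the megakaryocyte gate (log2 fold change -1.17 to -2.38) and in the lymphoid-primed gate (-0.88 to -2.16). Without control 1 Dusp2 and Dusp5 also passed in the lymphoid-primed gate and Dusp1 in the erythroid gate, and without control 2 Etv5 passed in the erythroid gate. In simulated libraries of these sizes 33.65% to 45.28% of genes changed by 1 on the log2 scale were found in the small gates, against 64.36% in the stem gate, so that a change of that size can be missed there.

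**Figure D2:**
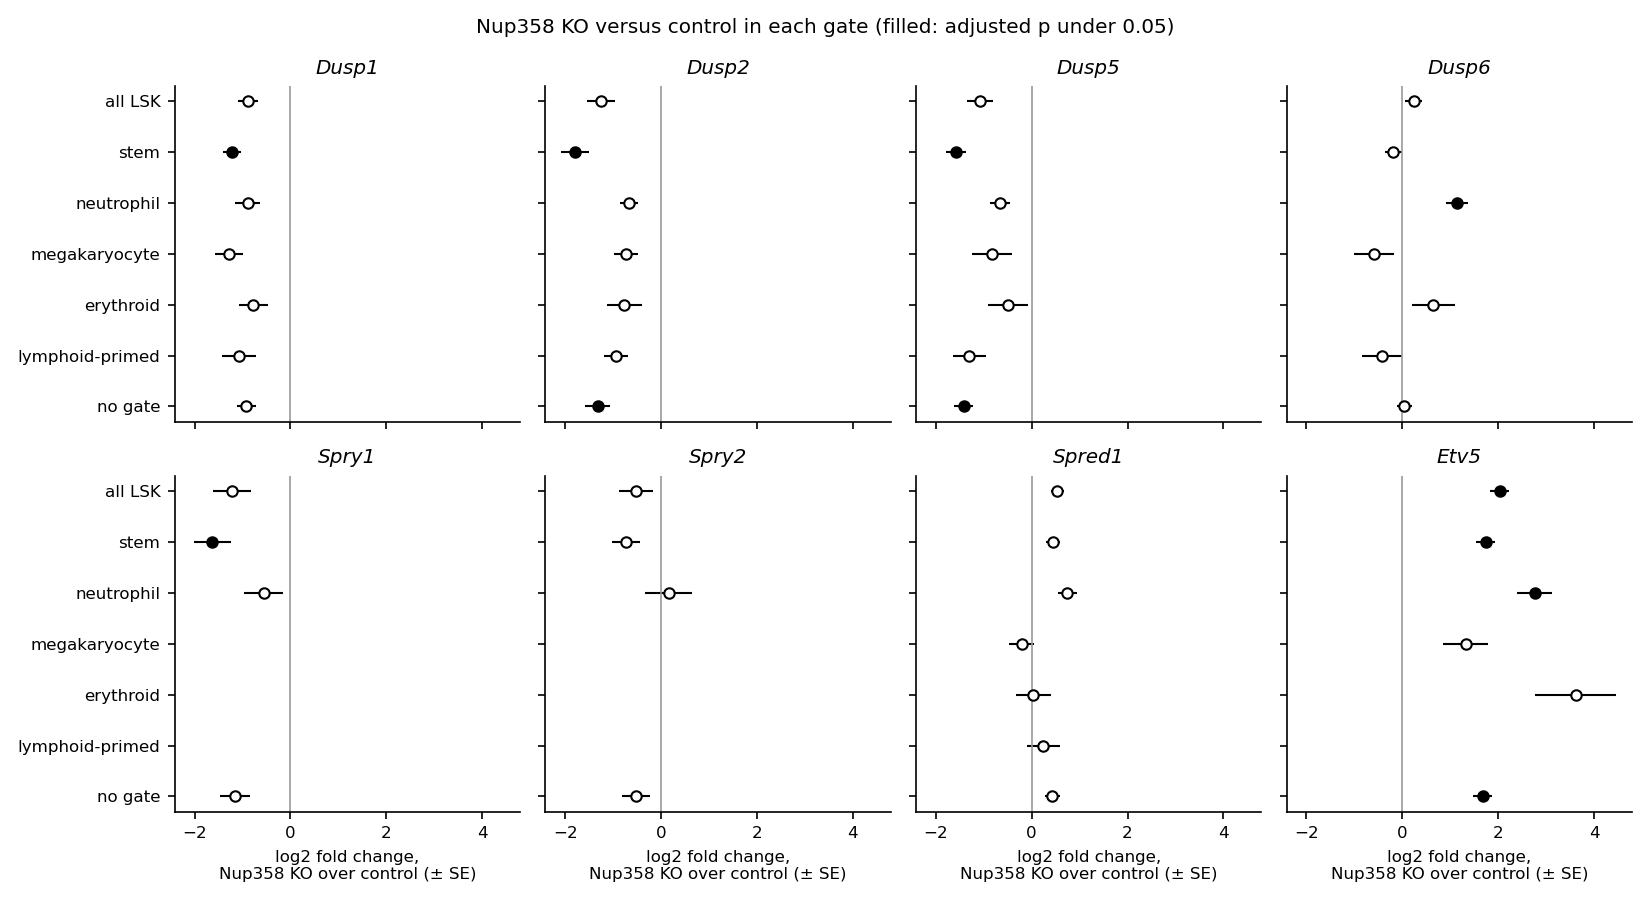
Log2 fold change of Nup358 KO over control with its SE for each gene in all LSK cells, each tested gate and cells of no gate (filled points: adjusted p under 0.05; no point: too few UMIs to be tested). Etv5 is filled in all LSK cells, in the stem and neutrophil gates and in cells of no gate, while Dusp1, Dusp2, Dusp5 and Spry1 are filled below 0 in the stem gate, Dusp2 and Dusp5 are filled in cells of no gate, and Dusp6 is filled above 0 in the neutrophil gate.

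Whether the difference between genotypes itself differed between a gate and the sum of all other cells was tested as an interaction. The library was a block. In the stem gate the change was more negative than in the other cells for 5 of 8 members, where 7.06% of all 12694 genes tested were more negative and 13.7% more positive. The difference of log2 fold changes was -0.80 for Dusp2 (SE 0.08, adjusted p 1.33e-05), -0.82 for Dusp5 (SE 0.11, adjusted p 0.000228) and -0.46 for Dusp1 (SE 0.06, adjusted p 0.000224). It was -0.62 for Dusp6 (SE 0.11, adjusted p 0.00112), although Dusp6 itself did not pass in the stem gate. It was -0.73 for Spry1 (SE 0.20, adjusted p 0.0192), a call that was lost without control 2 (adjusted p 0.0696), Nup358 KO 1 (0.0975) or Nup358 KO 2 (0.0706). The 4 phosphatase genes kept their calls without any 1 library. With no barcode shared between libraries only Dusp5 passed, at 2 times the gate threshold Dusp1, Dusp2 and Dusp5 did, and with thinned cells Dusp1 and Dusp2.

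In the neutrophil gate the change was more positive than in the other cells for 4 members, where 2.28% of all 13221 genes tested were. The difference was 1.01 for Dusp6 (SE 0.20, adjusted p 0.00254), 0.67 for Dusp2 (SE 0.16, adjusted p 0.0116), 0.64 for Dusp5 (SE 0.19, adjusted p 0.0381) and 0.97 for Etv5 (SE 0.30, adjusted p 0.0465). Only Dusp6 kept its call without any 1 library. With DESeq2 0 of the 4 passed, with no adjusted p for Dusp6 and Etv5, and with thinned cells 0 did (Dusp6 1.54, adjusted p 0.0969). At 2 times the gate threshold only Dusp6 passed, and with DESeq2 size factors in edgeR only Dusp2 and Dusp6. That of Dusp2 was lost without control 2 (0.29, adjusted p 0.121), that of Dusp5 without Nup358 KO 1 (0.32, adjusted p 0.65), and that of Etv5 without control 2, Nup358 KO 1 or Nup358 KO 2 (adjusted p 0.107 to 0.132). The other cells of the neutrophil comparison include the stem gate and those of the stem comparison the neutrophil gate, so both tests share cells. The makeup of the other cells differed between genotypes as well. The neutrophil gate held 30.7% and 15.4% of the cells in the control libraries against 10.6% and 4.24% in the Nup358 KO libraries. The B-lineage gate, among the other cells of both comparisons, held 0.141% and 0.667% against 7.24% and 9.09%. The part of this makeup in the differences was not tested. In the megakaryocyte, erythroid and lymphoid-primed gates no member passed the interaction test in edgeR, DESeq2 called 0 of those it gave an adjusted p, and 3, 0 and 2 members had an unadjusted p under 0.05, where 6.37%, 8.66% and 9.09% of all genes did. By adjusted p 0.607%, 1.7% and 1.33% of all genes passed, and Dusp1 passed in the erythroid gate without control 2.

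**Figure D3:**
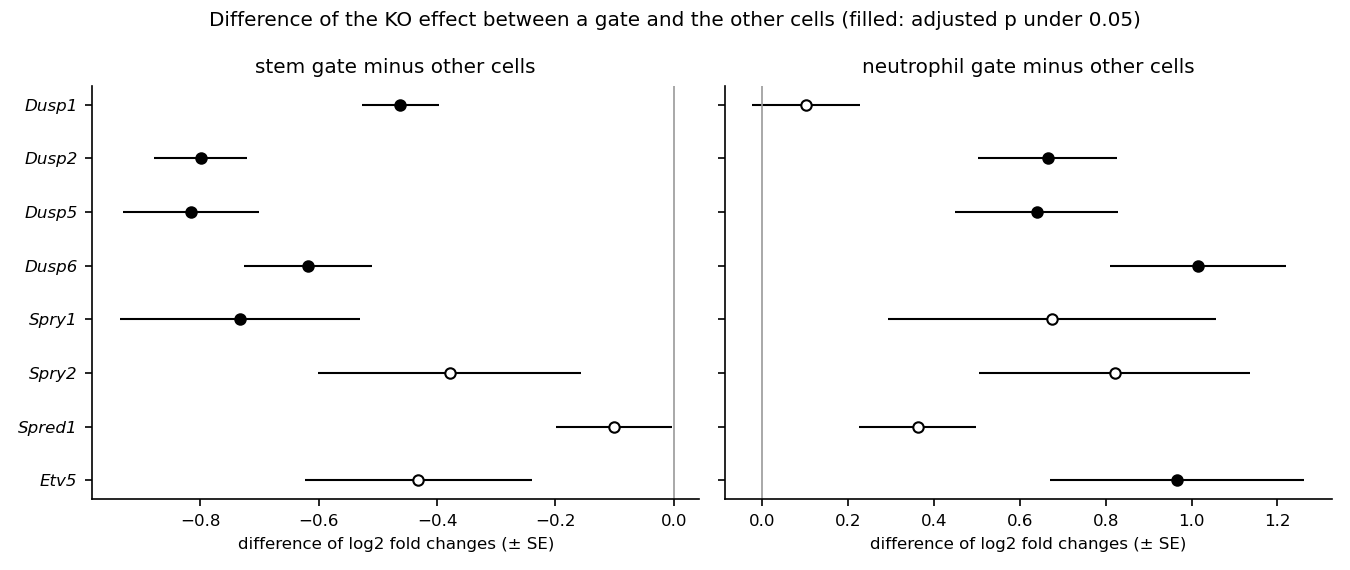
Difference between the log2 fold change (Nup358 KO over control) in a gate and in the other cells, with its SE, for the stem gate and the neutrophil gate (filled points: adjusted p under 0.05). The filled points run from -0.46 to -0.82 in the stem gate and from 0.64 to 1.01 in the neutrophil gate, with Dusp2, Dusp5 and Dusp6 filled on opposite sides of 0.

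Across the progenitor types, with both genotypes together and the library as a block, the stem gate had the highest mean level of Dusp1, Dusp6, Spry1 and Etv5 among the tested gates and the next to highest of the other members. Dusp1 was above the next gate in all 4 libraries, with 216 ± 103 CPM (SD over the 4 libraries) against 182 ± 104 in the megakaryocyte gate. The erythroid gate, however, had more Dusp1 than the stem gate in control 2 (302 against 286 CPM) and in Nup358 KO 1 (131 against 106). Dusp6, Spry1 and Etv5 were above the next gate in only 2 of 4 libraries each: Etv5 was higher in the megakaryocyte gate in both control libraries (6.49 and 6.79 CPM against 6.32 and 6.62), and Spry1 was higher in the lymphoid-primed gate in both Nup358 KO libraries (11.4 and 10.2 against 5.66 and 9.28). None of these neighbours differed beyond the spread, which also holds the difference between genotypes, and gates were not tested against each other. The basophil or mast gate, too small to test with 3 to 29 cells per library, had more Dusp1 than the stem gate in every library (347 and 592 CPM in the control, 339.95 and 342 in the Nup358 KO libraries). In the stem gate 7 of 8 members were above the other cells, where 18.9% of all 12694 genes tested were. The largest difference was that of Spry1, at 1.09 on the log2 scale (SE 0.17, adjusted p 0.00363), followed by 0.66 for Dusp5 (SE 0.16, adjusted p 0.0155), 0.63 for Etv5 (SE 0.11, adjusted p 0.00532) and 0.46 for Dusp1 (SE 0.10, adjusted p 0.00934). Spry2, Dusp6 and Spred1 were higher by 0.43, 0.42 and 0.41. The calls of Spry2 and Dusp6 were each lost without control 1 (adjusted p 0.142 and 0.131) or without control 2 (0.101 and 0.11), that of Spry2 also without Nup358 KO 2 (0.0681), and that of Dusp5 without control 2 (0.0597).

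In the neutrophil gate 6 of 8 members were lower than in the other cells, where 21.3% of all genes were. Dusp5 was lower by 1.64 on the log2 scale (log2 difference -1.64, SE 0.14, adjusted p 5.02e-05) and Spry1 by 1.22 (log2 difference -1.22, SE 0.19, adjusted p 0.000968). Etv5 (-0.82), Dusp2 (-0.65), Dusp1 (-0.61) and Spred1 (-0.53) followed, and the call of Etv5 was lost without control 1 (adjusted p 0.0839). In these cells Dusp5 lay between 12 and 20.0 CPM in the 4 libraries, against 32.1 to 126 in the stem gate.

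Among the tested gates the lymphoid-primed gate held the highest mean levels of Dusp2 and Dusp5 and the lowest of Dusp1. Of its 259 cells 209 lay less than 25% above the threshold of the gate. At 2 times the threshold it held 1 to 25 cells per library. Dusp5 averaged 108 ± 68.9 CPM there (SD over the 4 libraries of both genotypes) against 75.9 ± 45.3 in the stem gate, above it in 3 of 4 libraries. Dusp2 averaged 236 ± 98.4 against 201 ± 145 in the stem gate, also above it in 3 of 4 libraries. Neither pair of neighbours differed beyond this spread, which also holds the difference between genotypes. The gates were not tested against each other. Against all other cells Dusp5 was higher by 1.12 (SE 0.12, adjusted p 3.68e-10), Dusp2 was higher by 0.79 (SE 0.10, adjusted p 1.76e-08) and Dusp1 was lower, at -0.86 (SE 0.12, adjusted p 2.75e-07). These 2 higher and 1 lower calls stand beside 4.83% and 7.13% of all genes.

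The megakaryocyte and erythroid gates were low in the same pair of phosphatase genes. Dusp2 was at -1.01 in the megakaryocyte gate (SE 0.12, adjusted p 6.27e-10) and at -1.59 in the erythroid gate (SE 0.15, adjusted p 2.90e-07), both relative to the other cells. Dusp5 was at -1.34 (SE 0.17, adjusted p 5.44e-09) and -1.14 (SE 0.17, adjusted p 8.16e-05). Dusp6 was also lower in the megakaryocyte gate, at -0.70 (SE 0.21, adjusted p 0.00965), a call that was lost without Nup358 KO 1 (adjusted p 0.0544) or Nup358 KO 2 (0.289). Spred1 was higher there, at 0.52 (SE 0.14, adjusted p 0.00464), with 47.3 to 61.1 CPM in the 4 libraries against 37.7 to 53.5 in the stem gate, and that call was lost without control 1 (adjusted p 0.237). In the megakaryocyte gate 8.06% of all genes were higher and 11.4% lower, and in the erythroid gate 14.0% were lower. Dusp1 averaged 182 ± 104 in the megakaryocyte gate and 182 ± 81.1 in the erythroid gate. These did not differ beyond their spread over both genotypes and were not tested against each other.

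Over the 24 sums of a library and a gate (4 libraries by 5 gates and no gate), Dusp2 and Dusp5 had the most alike profiles among the members, with a Pearson correlation of 0.86 across log2 levels. Dusp2 with Spry1 had 0.79 and Dusp5 with Spry1 had 0.72, whereas Dusp1 with Dusp2 had only 0.18. Etv5 went with Spred1 (0.62) and against Dusp2 (-0.31). The 24 sums share libraries, so these are descriptions. Among the genes with a mean of at least 5 CPM, Dusp1 was most like Per1 (0.89), the early response gene Ier2 (0.88) and G430095P16Rik (0.87). Dusp2 was most like Ctxn1, Lsp1 and Znrf1 (0.91 to 0.92), and Dusp5 like Gm5111, Stk17b and Sept1 (0.91 to 0.93). Dusp6 was most like Ctsw, Ptger4 and Rtn4 (0.78 to 0.80), Spry1 like Rcbtb2, Cirbp and Cul9 (0.85 to 0.87), and Spry2 like Gm5141, Mthfs and AU041133 (0.80 to 0.84). Spred1 was most like Angpt1, Prkce and Slc2a3 (0.86 to 0.90), and Etv5 like Hnrnph1, Fubp1 and Kpna4 (0.87 to 0.91).

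Among the relatives of the members, Etv4 and Spry4 rose over all LSK cells. Of 2 other PEA3 factors, Etv4 was nearly absent from the control libraries, with 4 and 0 UMIs, and had 76 and 152 UMIs in the Nup358 KO libraries (2.32 and 2.82 CPM, adjusted p 0.0079), while Etv1 did not pass (adjusted p 0.661). Of 3 other Sprouty and Spred genes tested, Spry4 rose, from 0.20 and 0.16 CPM in the control libraries to 0.95 and 0.87 in the Nup358 KO libraries (log2 fold change 2.21, SE 0.43, adjusted p 0.0444). Its call was lost without Nup358 KO 1 (adjusted p 0.13) or Nup358 KO 2 (0.182). Spred2 had 9.86 and 10.3 against 17.0 and 14.6 (log2 fold change 0.61, SE 0.16, adjusted p 0.0906). Of 5 other MAP kinase phosphatase genes tested none passed by edgeR, 2 had an unadjusted p under 0.05 and 1 passed with DESeq2. Among all 13779 genes tested, 2986 had an unadjusted p under 0.05 and 946 passed with DESeq2. Dusp4 had 1.20 and 1.86 against 3.30 and 4.53 (log2 fold change 1.37, SE 0.33, adjusted p 0.0698).

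No gene of the kinase cascade itself passed the test. None of the 11 RAF, MEK and ERK genes passed by edgeR over all LSK cells (2 at an unadjusted p under 0.05 and 1 with DESeq2), and none of 9 adaptors and RAS regulators did (0 and 0) or of 7 p38 and JNK genes (1 and 0). By these 2 rules 2986 and 946 of all 13779 genes tested passed. Mapk3, which encodes ERK1, had 44.5 and 40.2 CPM in the control libraries against 29.9 and 28.8 in the Nup358 KO libraries (log2 fold change -0.57, SE 0.14, adjusted p 0.0696). Of 9 receptor genes 2 fell, Csf1r, the M-CSF receptor, from 12.5 and 10.4 to 1.65 and 0.85 (log2 fold change -3.28, SE 0.32, adjusted p 0.00674), and Csf2ra, a subunit of the GM-CSF receptor, from 43.7 and 40.1 to 19.6 and 17.8 (log2 fold change -1.20, SE 0.14, adjusted p 0.0108). Csf1r is also a marker of the monocyte or dendritic gate. In the stem gate 3 of the 9 receptor genes fell, where 4.43% of all genes tested did, with a median log2 fold change of -0.66. All 9 had an unadjusted p under 0.05 there by edgeR, as did 3371 of all 11956 genes.

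Of 11 genes known to respond to ERK, 4 fell and 1 rose over all LSK cells, with a median log2 fold change of -1.08 against -0.01 over all genes tested. Egr1 fell by 2.23 on the log2 scale (SE 0.20, adjusted p 0.00674), from 240.4 and 326 to 59.8 and 64.5 CPM. Fos fell from 1037 and 1163 to 314 and 424 (adjusted p 0.0151), Ier2 from 324 and 291 to 128 and 171 (adjusted p 0.033), and Egr3 from 0.86 and 3.08 to 0.12 and 0.06 (adjusted p 0.0406). Cyclin D1 (Ccnd1) rose from 11 and 12.8 to 49.2 and 51.4 (log2 fold change 2.04, SE 0.16, adjusted p 0.00626). The call of Ier2 was lost without Nup358 KO 1 (adjusted p 0.181). In the stem gate 8 of these 11 fell and Ccnd1 rose. The division of genes between this list and the handling list below was a choice. Whether the falls in these lists are separate was not tested.

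Some of the 13 genes on a list of responses to cell handling and heat fell as Dusp1, Dusp2 and Dusp5 were lower, and their part in those values was not tested. Over all LSK cells 6 of the 13 fell, none of them a heat shock gene: Jun (log2 fold change -1.66), Klf6 (-1.29), Atf3 (-1.97), Jund (-1.24), Btg2 (-1.65) and Nr4a1 (-2.08), with adjusted p from 0.00774 to 0.0464. Of the genes on the list that are not heat shock genes, only Zfp36 did not pass. The call of Jund was lost without Nup358 KO 1 (adjusted p 0.0565). The summed level of the list, which its heat shock genes lead, overlapped between genotypes, with 6657 and 5497 CPM in the control libraries against 5653 and 6338 in the Nup358 KO libraries. In the stem gate 7 of the 13 fell and Hsp90aa1 rose (log2 fold change 0.87, SE 0.22, adjusted p 0.0491). Genes of the list also fell in the neutrophil (6 of 13 tested), megakaryocyte (6 of 10), erythroid (4 of 12) and lymphoid-primed (3 of 11) gates. In cells of no gate 7 of 13 fell. Of all genes tested 2.29%, 0.304%, 0.85%, 0.513% and 2.65% fell in these 5 groups of cells. Markers of other cell types were also summed over all LSK cells. The T or NK cell genes lay between 194 and 280 CPM in the 4 libraries, of which Cd3g had at most 1.07 and Cd3e at most 0.37. Stroma or endothelium genes lay between 1.95 and 4.30. Macrophage genes lay at 6.44 and 2.33 in the control and 14.0 and 6.07 in the Nup358 KO libraries. Mature erythroid genes reached 1351 in control 2 against 127 to 224 in the other libraries, and 4 of 5 fell in the Nup358 KO. Each of these 4 had at most 4.36 CPM in either Nup358 KO library. Of 9 B-lineage genes 5 rose (sum 48.0 and 53.4 against 149 and 445 CPM), as did 4 of 6 plasmacytoid dendritic genes (19.2 and 29.7 against 46.3 and 39.7) and 3 of 7 basophil or mast cell genes (31.3 and 22.3 against 79.3 and 173). In sums of cells, fewer expressing cells and less RNA per cell cannot be told apart.

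**Figure D4:**
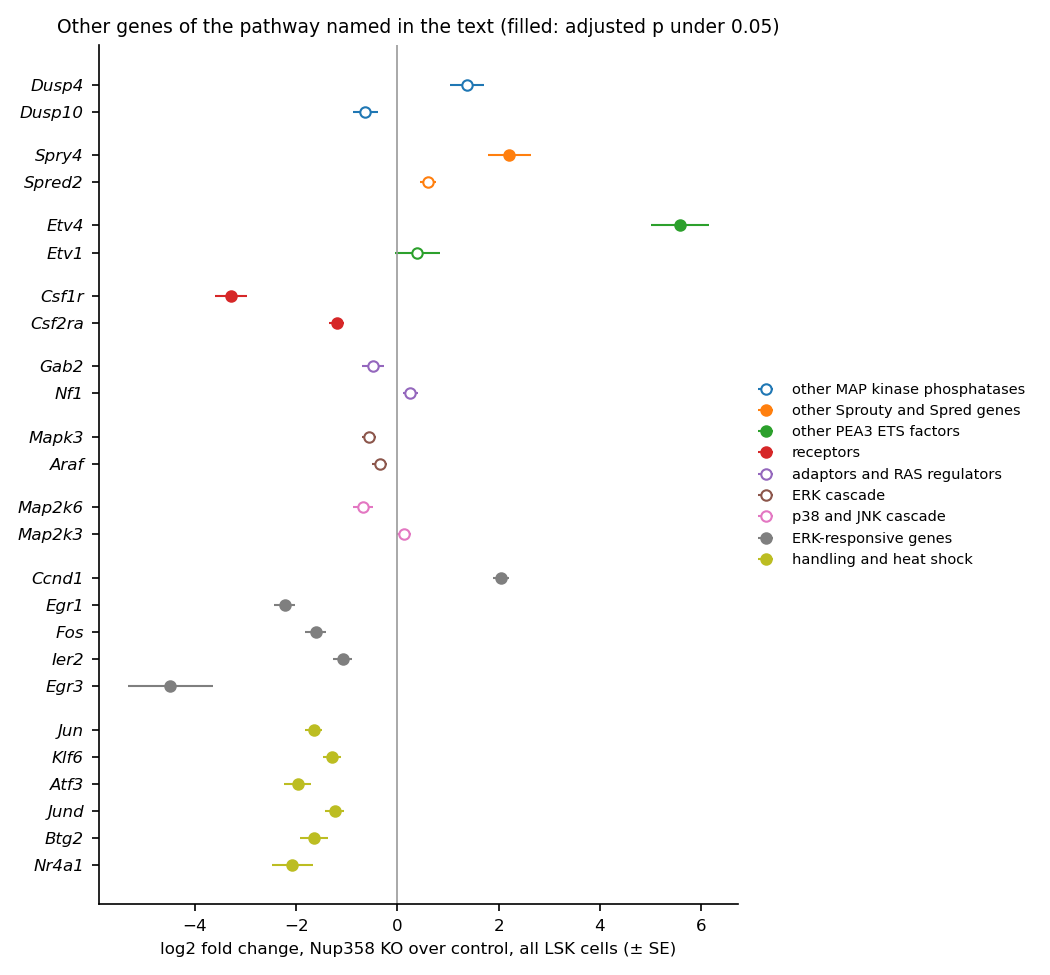
Log2 fold change of Nup358 KO over control over all LSK cells, with its SE, for the genes of 9 related lists named by rule (the 2 genes with the smallest p of each list and every gene past the threshold; filled points: adjusted p under 0.05). Etv4, Spry4 and Ccnd1 are filled above 0, and Csf1r, Csf2ra, Egr1, Fos, Ier2, Egr3 and 6 handling genes are filled below 0.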

How the data were processed

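The deposited matrices hold UMI counts of 27998 genes per cell barcode, which the authors made per library with Cell Ranger 3.1 on mm10 without normalization. A cell needed 200 genes or more and no more than 10% mitochondrial UMIs (24973 cells), and barcodes with 3 or more times the UMIs under the same sequence in a different library were then left out. A cell entered a gate when its marker UMIs per 10000, each marker counted up to 0.5 of the threshold, reached that threshold (4 to 20), and it went to the gate with the highest score over its threshold. The thresholds were set after the data were seen. UMIs were summed per library and gate and tested with edgeR 4.0.16 in R 4.3.3 (its filter on low counts, trimmed mean of M-values scaling, quasi-likelihood test, Benjamini-Hochberg adjustment over all genes at 0.05). Comparisons were Nup358 KO against control over all cells and within a gate, a gate against the other cells and the interaction of both, the last 2 with the library as a block. DESeq2 1.42.0, other scaling and filters, other barcode, cell and gate rules, thinning to 1000 UMIs and each library left out in turn were alternatives. Simulated counts with 200 changed genes were used to test the steps, and over all LSK cells 47.06% of those changed by 1 on the log2 scale and 84.69% of those changed by 2 were found, with 6.43% false calls (9.50% in the stem gate, above the nominal rate). Profiles were compared as log2 of CPM with 5 added. Doublets were not removed. The members, lists and motifs were chosen with earlier results of these data known. The text names the members, up to 2 genes of each related list with the smallest p over all LSK cells and every gene of a list past the threshold, and the 3 genes most like each member. Hsp90aa1 and Zfp36 were named after their values were seen. Intervals cover counting error only, and PCR duplicates are removed by the UMIs.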

Additional observations from a re-analysis of the deposited data

Results flagged for a closer look

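For 6 members the difference between genotypes differed between a gate and the sum of the other cells by a test of the difference itself. These results are repeated here with their values. In the stem gate the log2 fold change of Nup358 KO over control minus that in the other cells was -0.80 for Dusp2, -0.82 for Dusp5, -0.46 for Dusp1, -0.62 for Dusp6 and -0.73 for Spry1. In the neutrophil gate the same difference was 0.67 for Dusp2, 0.64 for Dusp5, 1.01 for Dusp6 and 0.97 for Etv5. Of the stem differences that of Spry1 was lost without 1 of 3 libraries and only that of Dusp5 passed with no barcode shared between libraries. Of the neutrophil differences only that of Dusp6 was kept without any 1 library, and 0 passed with thinned cells or with DESeq2, which gave no adjusted p for Dusp6 and Etv5. Dusp2, Dusp5 and Dusp6 thus appear in both comparisons with opposite signs, and the cells of each gate are among the other cells of the opposite comparison. The median depth was 7107.5 UMIs per cell in the stem gate and 11508 in the neutrophil gate, over all libraries together. Within the stem gate depth differed by library, with 10282641 UMIs in 2123 cells of control 1 and 5586413 in 476 of control 2. Nup358 KO 1 had 8657559 UMIs in 453 cells there and Nup358 KO 2 had 12934116 in 912. The part of depth in these differences was not tested. The makeup of the other cells also differed between genotypes, and its part was not tested either.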

How the results depend on the processing

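Of 852 values of the members under an alternative, 686 kept their direction and their side of the threshold, 70 lost the call, 83 gained one and 13 changed sign, none of the last with a call under the alternative. These values were a chosen part. For gates against other cells and for interactions they covered only members called in the values reported. In the 3 small gates they covered only Dusp1, Dusp2 and Etv5 between genotypes. Values that could not be tested or had no adjusted p under an alternative were left out. Calls gained outside this part, and calls that became untestable, are therefore not counted. Over all LSK cells the count of genes called was 474 in the values reported, 946 with DESeq2, 1933 with no filter on low counts, 178 with no barcode shared between libraries and 372 to 2890 with 1 library left out. The count of members called there, 1 as reported, was 5 with DESeq2, 6 with no filter, 0 with no shared barcode and 1 to 7 with 1 library left out. For counts within gates, for gates against other cells and for interactions, the share of all genes called under the same alternative is not given. These counts, here, in what follows and wherever given above, describe how the calls moved and are no result about the members. With no filter the count of members called was 5 in the neutrophil gate, 1 in the megakaryocyte gate, 1 in the erythroid gate, 3 in the lymphoid-primed gate and 5 in cells of no gate. With no shared barcode it was 1 in the stem gate, 1 for the stem gate against other cells, 1 for the stem interaction and 0 in cells of no gate. With thinned cells it was 3, 2 and 2 for these 3 stem comparisons, and 0 in the neutrophil gate and 0 for its interaction. With 2 times the gate threshold it was 3 for the stem interaction and 1 for the neutrophil interaction, and with 0.5 times it was 4 in the neutrophil gate, 1 in the erythroid, 1 in the lymphoid-primed gate and 5 in cells of no gate. With all deposited barcodes it was 1 in the megakaryocyte gate and 5 in cells of no gate. DESeq2 called 5 in cells of no gate, 2 for the megakaryocyte gate against other cells and 0 for the neutrophil interaction, where it gave no adjusted p for 5 members, and its size factors in edgeR called 2 there.

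With 1 library left out the counts ran from 1 to 5 in the neutrophil gate, 1 to 7 in cells of no gate, 4 to 8 for the stem gate against other cells, 2 to 4 for the neutrophil interaction, 0 to 1 in the megakaryocyte gate, 0 to 1 in the erythroid gate and for its interaction, and 0 to 3 in the lymphoid-primed gate. A group then left with 1 library is taken to vary like the other group. Values that changed sign were Dusp6 (0.37) in the stem gate, Spry1 (0.76) for the stem interaction, Spry2 (0.34) in cells of no gate and Dusp10 (0.24) over all LSK cells with no shared barcode, Spred1 (-0.017) in the stem gate and Dusp6 (-0.24) and Spry2 (0.26) in cells of no gate after thinning, Spry2 (-0.0098) in the neutrophil gate at 0.5 times the threshold, and Dusp6 (-0.024) in cells of no gate at 2 times. With 1 library left out the sign changed for Spry2 over all LSK cells (-1.03 to 0.14) and in the neutrophil gate (-0.62 to 0.84), for Dusp6 in the stem gate (-0.37 to 0.0061) and in cells of no gate (-0.10 to 0.18), and for Cd3e (-0.18 to 3.01). The causes were not tested.

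No pairing of the samples by replicate number is stated. The deviations of control 1 and Nup358 KO 1 from their group means correlated at -0.06 across genes. With 2 libraries per genotype this value cannot show whether same-numbered libraries were handled together. With the replicate number as a block 1257 genes and 5 members were called over all LSK cells, 5 in the neutrophil gate, 5 in cells of no gate, 1 in the megakaryocyte gate and 3 in the lymphoid-primed gate. The megakaryocyte, erythroid and lymphoid-primed gates had too few cells for a fit with 2 times the threshold, with thinned cells or with no shared barcode, and the neutrophil gate had too few with no shared barcode. Depth limits Spry1, Spry2 and Etv5, with at most 29 UMIs in any library in the small gates.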
